A study of Mus musculus with 9 samples.

Results

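The genes described here are the 3 E protein genes Tcf3, Tcf4 and Tcf12 and the 3 Id genes Id1, Id2 and Id3, in bone marrow progenitors of mice. They were chosen by name, as all probe sets that the array's platform annotation gives to these 6 genes alone: 6 of 18193 genes, with 19 of the 34945 probe sets that have 1 gene. Of these, 14 are for E proteins and 5 for Id proteins. The progenitors were sorted as Lineage-, CD117+, SCA-1+ and CD135+ (Flt3) cells, early blood progenitors from which lymphoid cells can arise. RNA of E2A-/- mice, of Lyl1-/- mice and of wild-type (WT) control mice was hybridised to 9 Affymetrix 3-prime expression arrays, 3 for each genotype. E2A is the protein product of Tcf3, and Lyl1 is a basic helix-loop-helix protein that pairs with E proteins. For the mice, neither age, sex and strain nor the form of the deletions nor any pooling is given in the sources used here. Since the RNA is that of a sorted population, fewer cells of a type and less RNA per cell cannot be told apart.

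E proteins are basic helix-loop-helix transcription factors that bind the E-box, a short DNA motif, as pairs with one another or with tissue-restricted partners such as Tal1 and Lyl1. In lymphoid progenitors they switch on genes of B and T cell development. Id proteins have the helix-loop-helix but no DNA-binding basic region, so an E protein bound by an Id protein cannot sit on DNA. The level of E protein activity therefore follows from the E proteins present and from the Id proteins that hold them back. Tcf3 encodes E12 and E47 (E2A), Tcf12 encodes HEB and Tcf4 encodes E2-2, the E protein of plasmacytoid dendritic cells. The questions asked of the arrays were whether other E protein transcripts were higher where E2A is lost, and how the Id transcripts stood beside them.

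The promoters of 4 of the 6 genes were at hand in the RefSeq promoter table (GRCm38.p6), with 6 transcription starts in all. They were searched for the E-box, CANNTG, which reads the same on both strands, in the 250 bases before each start. It was found in 4 of these 6 windows, and 66.2% of 32851 promoters of the same length hold it. The windows of Tcf3, of the outermost of the 3 Tcf12 starts and of Id2 are shown because they let E protein genes and an Id gene be seen with the motif that E proteins read. Each runs 5′ to 3′ on the gene's strand and the capitals mark the E-box.
Tcf3 promoter, chr10:80433636-80433885, minus strand: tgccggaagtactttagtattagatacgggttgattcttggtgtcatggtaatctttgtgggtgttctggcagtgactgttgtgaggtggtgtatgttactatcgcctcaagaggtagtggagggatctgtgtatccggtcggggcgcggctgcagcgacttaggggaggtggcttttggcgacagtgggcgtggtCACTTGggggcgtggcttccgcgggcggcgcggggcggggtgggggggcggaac
Tcf12 promoter, chr9:72111820-72112069, minus strand: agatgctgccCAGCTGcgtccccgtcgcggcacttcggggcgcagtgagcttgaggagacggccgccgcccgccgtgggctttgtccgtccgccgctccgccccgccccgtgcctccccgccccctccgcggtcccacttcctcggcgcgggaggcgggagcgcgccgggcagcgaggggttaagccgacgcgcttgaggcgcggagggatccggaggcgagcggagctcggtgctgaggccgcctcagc
Id2 promoter, chr12:25096093-25096342, minus strand: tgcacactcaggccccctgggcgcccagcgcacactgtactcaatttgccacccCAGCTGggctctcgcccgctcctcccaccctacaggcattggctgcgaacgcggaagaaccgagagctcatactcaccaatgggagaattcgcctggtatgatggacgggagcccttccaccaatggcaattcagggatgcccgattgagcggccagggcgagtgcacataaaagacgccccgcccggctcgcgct
The E-box letters are CACTTG before Tcf3 and CAGCTG before both Tcf12 and Id2. They begin 54 bases before the start of Tcf3, 240 before that of Tcf12 and 196 before that of Id2. The second Tcf12 window holds 1 E-box, CAAGTG, and no CANNTG stands in the third Tcf12 window or in that of Id3. A match describes the letters only.

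Some features of the arrays vary within a genotype. WT 1 and WT 3 were far closer to each other than any other pair (robust spread of the log2 difference at the brightest probe sets 0.0827, against 0.193 to 0.375 in the other 35 pairs), so they were counted as 1 sample and WT has n = 2, against n = 3 for each knockout. The actin 3-prime over 5-prime ratio was 10.1 on E2A-/- 2 and 10.6 on WT 2, and 2.85 to 4.23 elsewhere. Granulocyte markers summed to 15842 and 18087 on E2A-/- 2 and 3, and to 1012 to 2635 on the other 7 arrays. Erythroid markers summed to 1066 and 977 on E2A-/- 1 and 3, and to 267 to 407 on the other 7. Xist, the RNA of the inactive X chromosome, was bright on E2A-/- 2 and on Lyl1-/- 1 and 2 alone. Of the sort markers, Kit read 327 to 493 on the E2A-/- arrays, 314 to 397 on the Lyl1-/- arrays and 465 to 508 on the WT arrays. Flt3 read 863 to 1217, 672 to 1136 and 1052 to 1302 in the same order, and SCA-1 (Ly6a) has no probe set of its own in the annotation.

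An array reports the brightness of each probe set, so levels of different genes are not compared here. Values are the authors' intensities on a linear scale, with an array median of 77.9 to 79.3 and a lowest value of 42.1 to 45.1. This constant under every value understates differences of dim probe sets. A probe set was tested where it lay above the median of its array on at least 3 arrays. Of the 19 probe sets 14 were tested, 12 of E proteins and 2 of Id proteins. The E proteins Tcf4 and Tcf12 had 5 tested probe sets each and Tcf3 had 2. Id1 and Id2 had 1 each, and the single probe set of Id3 was too dim. A difference is a difference of mean log2 intensity, from a linear model over all 20387 tested probe sets (limma), and adjusted p-values are Benjamini-Hochberg values over all of them.

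By limma 0 of the 14 probe sets passed the threshold of 0.05 in any of the 3 comparisons. In E2A-/- against WT, 45 of all tested probe sets passed (0.221%). In Lyl1-/- against WT 44 passed (0.216%), and in E2A-/- against Lyl1-/- 15 passed (0.0736%). At an unadjusted p under 0.05 the members numbered 1 in E2A-/- against WT (8.07% of all tested probe sets), 3 in Lyl1-/- against WT (8.36%) and 5 in E2A-/- against Lyl1-/- (7.72%). Except for 1 Tcf3 probe set, these were all Tcf4 probe sets. The comparisons share arrays, so these counts are not independent of each other. The plot of intensities by array gives each tested probe set and that of Id3.

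**Figure D1:**
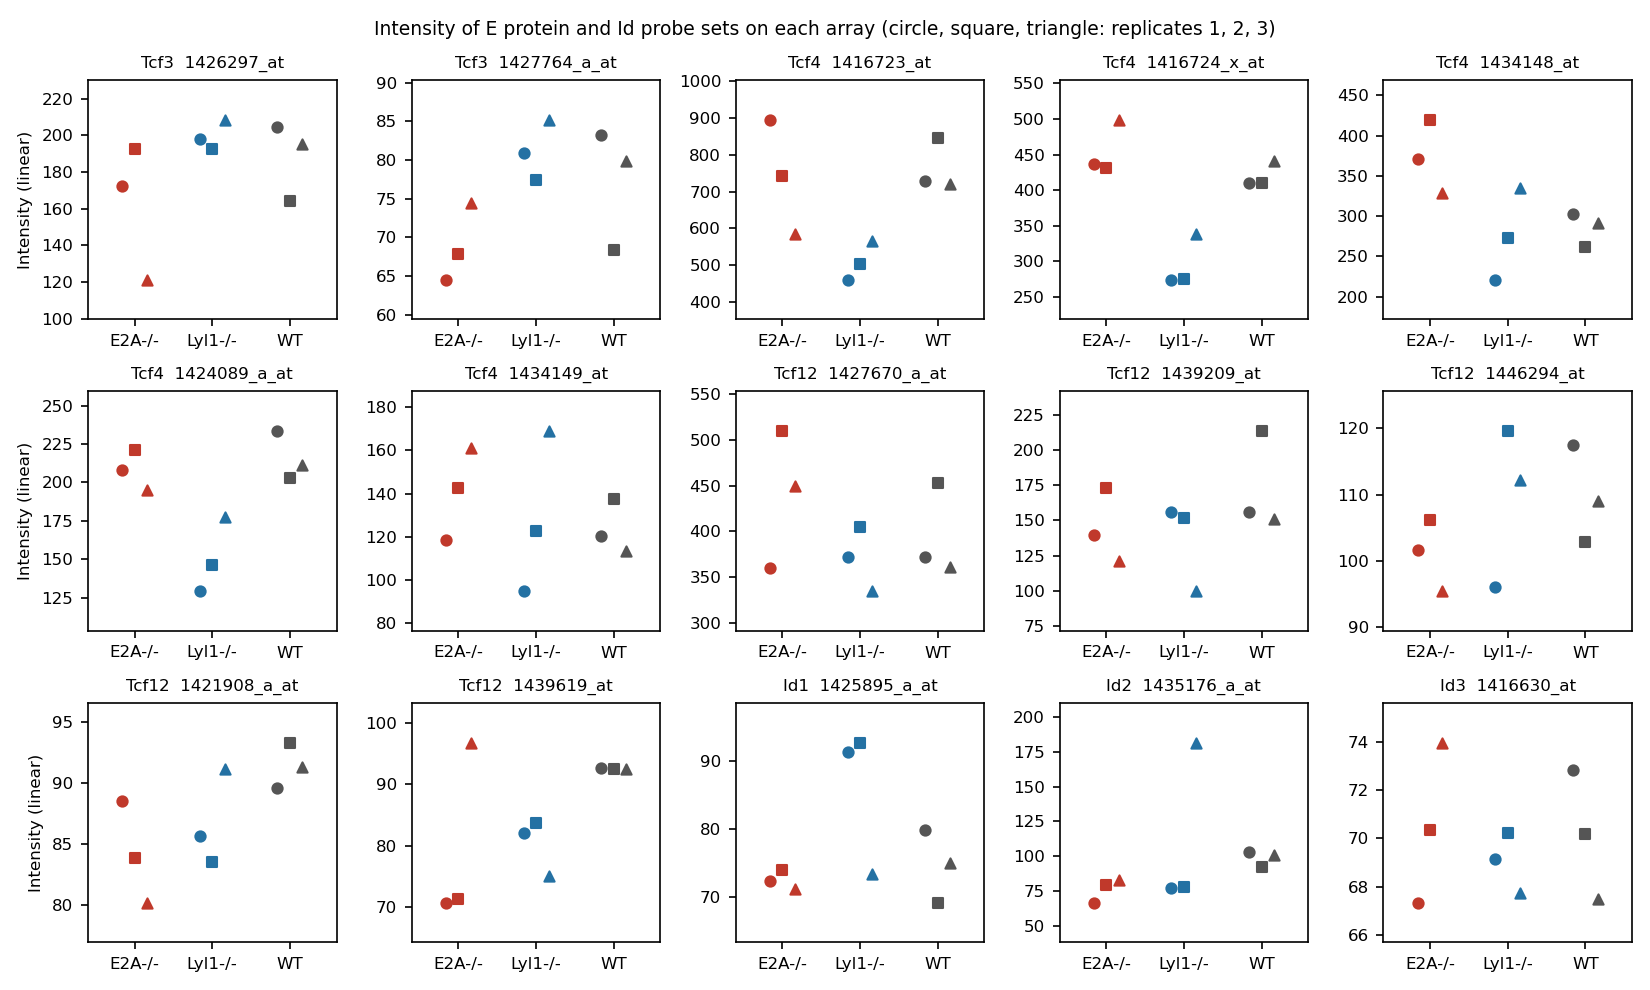
Intensity on a linear scale (vertical axes, scaled to each panel and not starting at 0) of the 14 tested probe sets and the untested one of Id3 on each array; each point is 1 array and its shape the replicate number. Tcf4 1416723_at, 1416724_x_at and 1424089_a_at lie below every WT array on all 3 Lyl1-/- arrays, and Id2 1435176_a_at reads 181 on Lyl1-/- 3 alone.

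Tcf3, the gene of E2A, had a lower mean in E2A-/- cells than in WT cells on all 3 of its probe sets, and neither of the tested ones passed. The brightest, 1426297_at, read 172, 193 and 121 in E2A-/- cells, against 205, 164 and 195 in WT cells. The groups overlap, E2A-/- 3 alone lying below every other array. The log2 difference was -0.19 (SE 0.187, limma adjusted p = 0.908), and 0.01 without E2A-/- 3. The dimmer 1427764_a_at read 64.5, 67.9 and 74.4 in E2A-/- cells, against 83.3, 68.4 and 79.8 in WT cells (log2 difference -0.12, limma adjusted p = 0.902). The third probe set, 1452542_x_at, was not tested. It read 69.7, 65.3 and 65.9 in E2A-/- cells, against 73.7, 72.0 and 74.3 in WT cells, and there the groups do not overlap (log2 difference -0.13, as a description). The removed part of the gene is unstated in the labels, so these probe sets may lie outside it and then check nothing about the deletion.

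Tcf3 in Lyl1-/- cells lay in or just above the range of WT. The brightest probe set read 198, 192 and 208 in Lyl1-/- cells (log2 difference from WT 0.14, SE 0.187, limma adjusted p = 0.937). The dimmer one read 81.0, 77.4 and 85.2 in Lyl1-/- cells, so every E2A-/- array lay below every Lyl1-/- array, as for 6.19% of all tested probe sets. That difference between E2A-/- and Lyl1-/- cells was -0.24 (SE 0.101, limma adjusted p = 0.628).

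Tcf4 had the largest difference from WT among the 14 probe sets, and it was in Lyl1-/- cells. Its brightest probe set, 1416723_at, read 461, 502 and 566 in Lyl1-/- cells, against 728, 847 and 719 in WT cells. The groups do not overlap. On the log2 scale they differ by -0.62 (SE 0.179, limma adjusted p = 0.356), a fold of 0.649 with a 95% interval from 0.489 to 0.86.

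A pair of further Tcf4 probe sets had the same order. Probe set 1416724_x_at, of a type that can also bind related transcripts, read 274, 275 and 338 in Lyl1-/- cells, against 409.8, 409 and 441 in WT cells. Its log2 difference was -0.50 (SE 0.124, limma adjusted p = 0.251). Probe set 1424089_a_at read 129, 146 and 178 in Lyl1-/- cells, against 233, 203 and 211 in WT cells. There the difference was -0.50 on the log2 scale (SE 0.14, limma adjusted p = 0.34). On all 3 probe sets Lyl1-/- 3 lay nearest to WT. Without Lyl1-/- 3 the difference of the brightest one was -0.70, and it stayed below 0 under all 23 alternatives, from -0.74 to -0.51.

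The other Tcf4 probe sets did not separate Lyl1-/- from WT cells. Probe set 1434148_at read 221, 273 and 335 in Lyl1-/- cells, against 303, 261 and 292 in WT cells (log2 difference -0.03, limma adjusted p = 0.987). Probe set 1434149_at read 94.96, 123 and 169 in Lyl1-/- cells, against 120.3, 137 and 113 in WT cells (log2 difference -0.02, limma adjusted p = 0.996). On both, Lyl1-/- 3 was the highest Lyl1-/- array and lay above every WT array. The sixth probe set, 1416725_at, read 56.5 to 66.5 on all 9 arrays and was not tested. Across the 8 samples of the fit, the 3 probe sets that separated Lyl1-/- from WT cells had Pearson correlations of 0.72 to 0.89 with each other. Probe set 1434149_at had correlations of 0.16 to 0.57 with the other 4 tested ones. The files do not say which Tcf4 transcripts each probe set covers.

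Of the 14 member probe sets 4 lay on all 3 Lyl1-/- arrays below every WT array, as 11.7% of all tested probe sets did, and 0 lay above (9.52%). Of these 4, 3 belong to Tcf4 and 1 to Tcf12. Tcf4 is the E protein of plasmacytoid dendritic cells, and Siglech, a marker of those cells, read 77.6 to 82.0 on the Lyl1-/- arrays and 77.4 to 80.4 on the WT arrays, near the array median. Bst2, which plasmacytoid dendritic cells also carry, read 345, 320 and 255 in Lyl1-/- cells, against 253, 186 and 255 in WT cells. Ccr9, a chemokine receptor of plasmacytoid dendritic and lymphoid cells, read 64.0, 55.8 and 150 in Lyl1-/- cells, against 82.7, 172 and 85.9 in WT cells. The part of these markers in the Tcf4 values was not tested. The 5 dendritic cell markers summed to 614 to 662 in Lyl1-/- cells and 574 to 604 in WT cells, with 2 to 3 and 3 to 4 of them above the array median. Lyl1-/- 1 and 2, the lowest arrays for Tcf4, are those of this genotype with Xist. E2A-/- 2, which also has Xist, read 742 on 1416723_at, 430 on 1416724_x_at and 221 on 1424089_a_at. With sex by Xist as a covariate the log2 difference of 1416723_at was -0.56 and that of 1416724_x_at -0.37.

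The probe sets of Tcf4 had no common direction in E2A-/- cells. The brightest, 1416723_at, read 895, 742 and 586 in E2A-/- cells, against 728, 847 and 719 in WT cells. The arrays of E2A-/- reached both above and below WT. On the log2 scale the difference was -0.10 (SE 0.179, limma adjusted p = 0.967), and its 95% interval ran from a fold of 0.703 to 1.24.

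One Tcf4 probe set was higher on each E2A-/- array. Probe set 1434148_at read 370.4, 419.5 and 328 in E2A-/- cells, against 303, 261 and 292 in WT cells. The groups do not overlap. They differ by 0.41 on the log2 scale (SE 0.179, limma adjusted p = 0.612), a fold of 1.33 with a 95% interval from 1.00 to 1.77. Non-overlap toward higher values was found for 1 of the 14 member probe sets, as for 7.23% of all tested probe sets. The tested probe sets 1416724_x_at, 1424089_a_at and 1434149_at had log2 differences of 0.12, -0.03 and 0.14.

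Set directly against each other, E2A-/- cells had a higher mean Tcf4 intensity than Lyl1-/- cells on all 5 tested probe sets, none of which passed. The log2 difference was 0.63 for 1416724_x_at (SE 0.111, limma adjusted p = 0.196), the smallest adjusted p of any member in the 3 comparisons. It was 0.52 for 1416723_at, 0.47 for 1424089_a_at, 0.44 for 1434148_at and 0.16 for 1434149_at. On the first 3 of these probe sets every E2A-/- array lay above every Lyl1-/- array, as 5.35% of all tested probe sets did. On 1434148_at and 1434149_at the groups overlap, and 1434149_at went as low as -0.08 under the alternatives. The untested 1416725_at differed by -0.05. The lowest limma adjusted p of any member and comparison under any alternative was 0.0548, for 1416724_x_at in Lyl1-/- against WT with the 9 arrays as separate samples and the replicate block.

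Tcf12, the gene of HEB, which shares work with E2A in early B and T cells, was not higher on every E2A-/- array on any of its 5 probe sets. Its brightest probe set, 1427670_a_at, read 359, 509 and 449.5 in E2A-/- cells, against 372, 453 and 361 in WT cells. The groups overlap, with E2A-/- 2 highest. The log2 difference was 0.09 (SE 0.166, limma adjusted p = 0.967), and the 95% interval ran from a fold of 0.821 to 1.39. The other 4 probe sets had log2 differences of -0.34 to -0.10. The sign of the brightest turned to -0.02 without E2A-/- 2. On that probe set E2A-/- 2 and WT 2 were the highest arrays of their genotypes, and these are the arrays with the high actin ratios (10.1 and 10.6). Its difference was 0.14 with the actin ratio as a covariate and 0.0017 with sex by Xist.

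One of these dimmer probe sets, 1421908_a_at, read 88.5, 83.8 and 80.2 in E2A-/- cells, against 89.6, 93.3 and 91.3 in WT cells. The groups do not overlap, and the log2 difference was -0.13 (limma adjusted p = 0.846). It is 1 of 2 tested member probe sets below every WT array in E2A-/- cells, the other being of Id2, where 10.3% of all tested probe sets lay so. The untested Tcf3 probe set 1452542_x_at also lay below WT. In Lyl1-/- cells the brightest Tcf12 probe set read 372, 405 and 335 (log2 difference from WT -0.14, limma adjusted p = 0.923). Probe set 1439619_at read 82.0, 83.7 and 75.0 in Lyl1-/- cells, against 92.7, 92.5 and 92.4 in WT cells, without overlap (log2 difference -0.21, limma adjusted p = 0.803). Probe set 1439209_at had the largest Tcf12 difference in Lyl1-/- cells, -0.44 (limma adjusted p = 0.709), with 156, 152 and 99.9 in Lyl1-/- cells, against 156, 213 and 151 in WT cells. Between the Tcf12 probe sets, correlations over the 8 samples ran from -0.44 to 0.57.

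Over the E protein genes together, 8 of the 12 tested probe sets had a negative difference in E2A-/- cells, with a median of -0.10, against -0.01 over all tested probe sets. In Lyl1-/- cells 9 of 12 were negative, with a median of -0.11, against 0.00 over all. The plot of differences from WT shows each with its interval.

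**Figure D2:**
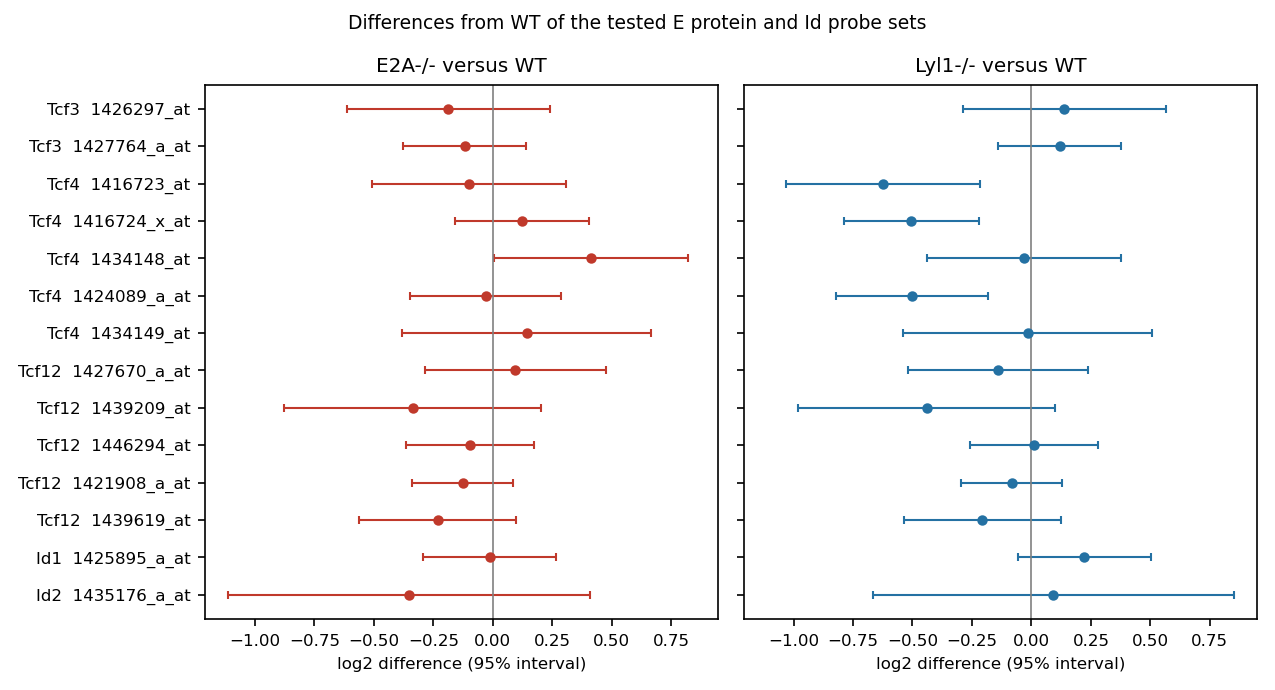
Difference of mean log2 intensity from WT (horizontal axis) for each of the 14 tested probe sets, in E2A-/- cells on the left and Lyl1-/- cells on the right; points are limma estimates and bars 95% intervals (n = 3 knockout and 2 WT samples). In E2A-/- cells the interval of Tcf4 1434148_at alone lies above 0, and in Lyl1-/- cells those of 3 Tcf4 probe sets lie below 0.

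Id transcripts were dim in all genotypes. Id1, which BMP signals switch on in many cells, had 1 probe set, 1425895_a_at, near the array median. It read 91.4, 92.7 and 73.4 in Lyl1-/- cells, against 79.9, 69.2 and 75.1 in WT cells. Lyl1-/- 1 and 2 lay above every other array, while Lyl1-/- 3 lay within WT. Its log2 difference was 0.22 (SE 0.123, limma adjusted p = 0.724), and 0.33 without Lyl1-/- 3. With 40 intensity units taken off every value before log2, it was 0.44.

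Id1 in E2A-/- cells read 72.4, 74.0 and 71.1, inside the WT range (log2 difference -0.01, SE 0.123, limma adjusted p = 0.997). Lyl1-/- 1 and 2, the arrays high in Id1, are also high in Xist, as is E2A-/- 2, where Id1 read 74.0. The 6 monocyte and macrophage markers summed to 2878 and 2681 on Lyl1-/- 1 and 2, and to 1902 on Lyl1-/- 3. They summed to 1689 to 2709 in E2A-/- cells and 1286 to 1772 in WT cells. Of these markers 5 to 6 lay above the array median in either knockout and 4 to 5 in WT. Adgre1 (F4/80), a macrophage marker, read 72.1 to 85.0 on all arrays, and Csf1r read 1310 and 1117 on Lyl1-/- 1 and 2, against 290 to 681 on the other 7. The rest of the list did not follow Csf1r. Ms4a6c read 391 and 396 on Lyl1-/- 1 and 2, 466 to 685 in E2A-/- cells and 203 to 289 in WT cells. Lyz2 read 905 and 913 on Lyl1-/- 1 and 2 and was highest on E2A-/- 3 (1054). Ccr2 read 96.1 to 120 and Cd14 77.1 to 84.6 on all arrays. Their part in the Id1 values was not tested.

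Id2, which innate lymphoid, natural killer and dendritic cells need, was lower on every E2A-/- array on its brightest probe set, which stood highest on a single Lyl1-/- array. Its brightest probe set, 1435176_a_at, read 66.7, 78.95 and 82.7 in E2A-/- cells, against 103, 92.0 and 101 in WT cells. The groups do not overlap. The log2 difference was -0.35 (SE 0.333, limma adjusted p = 0.899), with a wide 95% interval from a fold of 0.463 to 1.33. With 40 intensity units taken off, the difference was -0.68 (limma adjusted p = 0.847).

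The spread behind that interval is shared over the genotypes and holds 1 Lyl1-/- array far from its group. In Lyl1-/- cells Id2 read 77.3, 77.9 and 181. Lyl1-/- 1 and 2 lay below every WT array and Lyl1-/- 3 above all other 8 arrays. The log2 difference from WT was 0.09 (SE 0.333, limma adjusted p = 0.984), and it turned to -0.32 without Lyl1-/- 3. On Lyl1-/- 3 a second Id2 probe set, 1422537_a_at, was also at its highest, 83.9, against 64.3 to 73.4 on the other 8 arrays. The third, 1453596_at, read 58.8 there and 57.3 to 69.0 elsewhere. In E2A-/- against WT cells their log2 differences were 0.09 and 0.04, opposite in sign to the brightest. Neither was tested.

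The markers of cells that hold Id2 were read beside it. The natural killer and T cell list summed to 1142 on Lyl1-/- 3, against 1098 and 1256 on Lyl1-/- 2 and 1. Most of that sum is Nkg7, which read 826 on Lyl1-/- 3. Klrd1 of that list read 82.3 there, against 62.9 and 58.3 on Lyl1-/- 1 and 2. It read 70.5 to 78.9 in WT cells, and 63.8, 65.0 and 91.3 in E2A-/- cells. Cd3g (60.0) was also the highest of the Lyl1-/- arrays there, while Nkg7, Cd3e (103) and Gzma (70.5) lay between the other 2. The dendritic cell list summed to 662 on Lyl1-/- 3, against 647 and 614 on Lyl1-/- 1 and 2. Itgax (CD11c), an integrin of dendritic cells, read 111 on Lyl1-/- 3 and 84.0 to 101 on the other 8 arrays. Ccr9 was also the highest of the Lyl1-/- arrays there, and it read 63.5 to 65.1 in E2A-/- cells. Bst2 (255) and Cd209a (67.5) were the lowest of the Lyl1-/- arrays on Lyl1-/- 3, and Siglech (78.9) lay between the other 2. Their part in the Id2 value was not tested.

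Id3, which restrains E proteins in developing T and B cells, was not tested. Its probe set 1416630_at read 67.3, 70.4 and 73.9 in E2A-/- cells, 69.2, 70.2 and 67.7 in Lyl1-/- cells and 72.8, 70.2 and 67.5 in WT cells. All lie below the array median, and the groups overlap throughout. The log2 difference from WT, as a description, was 0.01 in E2A-/- cells and -0.02 in Lyl1-/- cells. The remaining Id gene, Id4, had 3 probe sets, all between 49.6 and 64.5 on every array and not tested.

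The balance of E and Id transcripts was described without a test. On each array the mean log2 deviation of Tcf4 and Tcf12 from WT was taken at their brightest probe sets, and that of Id1, Id2 and Id3 was subtracted. Id3, below the median of every array and too dim to test, counts in it as much as Id1 or Id2. The Id probe sets are all dim, so their deviations are understated beside those of the bright Tcf4 and Tcf12, and the measure is not an even balance. WT 1 and 3 count once in the WT mean, which is 0. In E2A-/- cells this balance was 0.21, 0.21 and -0.07. In Lyl1-/- cells it was -0.44, -0.33 and -0.66, and in WT cells -0.21, 0.18 and -0.16. Tcf4 enters at 1416723_at, where its difference in Lyl1-/- cells was -0.62, against -0.03 and -0.02 at 1434148_at and 1434149_at. The balance was not computed with Tcf4 read at those. At the brightest probe sets the Lyl1-/- arrays lie below all WT arrays, and the E2A-/- arrays lie partly within WT. How often other gene sets lie so was not computed. The mean balance was 0.12 ± 0.165 in E2A-/- cells and -0.48 ± 0.168 in Lyl1-/- cells (SD, n = 3 each).

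On the Lyl1-/- arrays the E protein part was -0.45, -0.32 and -0.38, and the Id part was -0.01, 0.01 and 0.29. The E protein part was negative on every Lyl1-/- array, and also on WT 1 and WT 3. On the WT arrays it was -0.12, 0.13 and -0.15, and the Id part was 0.09, -0.05 and 0.01. On Lyl1-/- 1 and 2 the Id part sums opposite values, 0.32 and 0.34 for Id1 and -0.32 and -0.31 for Id2. On Lyl1-/- 3 it holds the Id2 value of 0.91. On the E2A-/- arrays the E protein part was 0.01, 0.12 and -0.14, and the Id part was -0.20, -0.09 and -0.06. Tcf3 itself is left out of this measure, as its transcript is the targeted one.

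**Figure D3:**
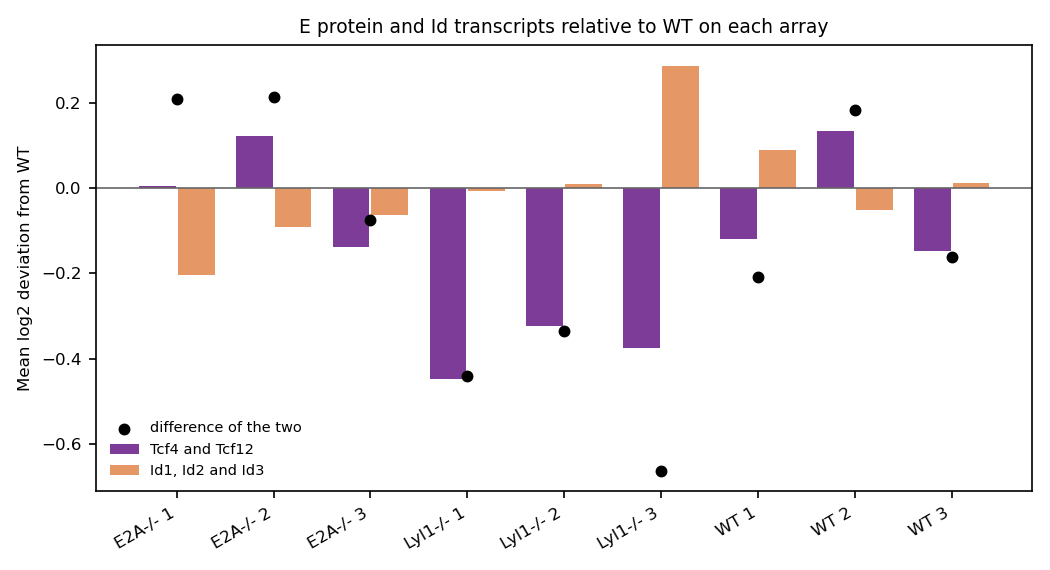
Mean log2 deviation from the WT mean (vertical axis) on each array for Tcf4 and Tcf12 (left bars) and for Id1, Id2 and Id3 (right bars), each gene at its brightest probe set; the black point is the first minus the second. With Tcf4 read at 1416723_at, the points of Lyl1-/- 1, 2 and 3 lie at -0.44, -0.33 and -0.66, below every WT array. Id3 was too dim to test, and Id1 and Id2 are dim as well.

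Among 19 partners and cofactors of E proteins, a list that holds Lyl1 itself, 17 were tested at their brightest probe set. Of them 1 fell in Lyl1-/- cells, Lyl1, and 0 rose, where 0.209% of all genes passed. Lyl1 read 89.6, 79.2 and 92.0 in Lyl1-/- cells, against 1429, 1352 and 1443 in WT cells (log2 difference -4.01, SE 0.164, limma adjusted p = 2.65e-05). Of the 17, 14 had a negative difference, with a median of -0.18, against 0.00 over the 11951 genes tested, of which 51.4% were negative. Next by p came Cbfa2t2, a corepressor of the ETO family (log2 difference -0.40, limma adjusted p = 0.41), the LDB1-binding Ssbp2 (-0.44) and Gata2, a stem and progenitor cell factor (-0.44).

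By limma 0 of the 17 passed in E2A-/- cells, where 0.226% of all genes passed. At an unadjusted p under 0.05, 4 were lower and 0 higher, against 5.43% and 3.28% of all genes. Of them 12 were negative, with a median of -0.10. Ssbp2 read 682, 563 and 461 in E2A-/- cells, against 809, 839 and 836 in WT cells (log2 difference -0.57, SE 0.153, limma adjusted p = 0.32). Lyl1 read 1222, 825 and 900.3 in E2A-/- cells (log2 difference from WT -0.53, limma adjusted p = 0.418). Cbfa2t3, the ETO family corepressor of Tal1 complexes, stood at -0.63 and Runx1, a factor of blood stem cells, at -0.46. Chosen for their small p, these 4 genes lay below every WT array on every E2A-/- array, as 10.3% of all tested probe sets did. Among the E2A-/- arrays Ssbp2, Lyl1 and Cbfa2t3 (297, 218 and 246) were lower on 2 and 3 than on 1. Of these arrays E2A-/- 3 was the highest for Runx1 (307, 283 and 329). Granulocyte markers summed to 15842 and 18087 on E2A-/- 2 and 3, against 1012 on E2A-/- 1. Erythroid markers summed to 1066 on E2A-/- 1, 407 on E2A-/- 2 and 977 on E2A-/- 3. Without E2A-/- 2 and 3 the Lyl1 difference was -0.19, and the part of these markers was not tested.

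E protein target genes of lymphoid progenitors were read as well, while E protein activity itself was not measured. Of 22 genes listed, 21 had a probe set and 14 were tested. By limma 0 passed in E2A-/- cells, where 0.226% of all genes passed. At an unadjusted p under 0.05, 5 were lower and 1 higher, against 5.43% and 3.28% of all genes. Of the 14, 10 were negative (53.7% of all genes), with a median of -0.20, against -0.01 over all genes. Dntt, the terminal transferase that adds bases at V(D)J joints, read 1826, 1857 and 1973 in E2A-/- cells, against 3795, 4171 and 3916 in WT cells. The groups are far apart, by -1.09 on the log2 scale (limma adjusted p = 0.0779, SE 0.176). It passed in 4 of 23 alternatives, with an adjusted p of 0.00737 without Lyl1-/- 3, an array of neither group.

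Next to Dntt by p came Vpreb1, Blnk and Il7r, none of which passed. Vpreb1, a part of the surrogate light chain, read 81.6, 78.0 and 82.8 in E2A-/- cells, against 91.8, 121 and 94.1 in WT cells (log2 difference -0.39, limma adjusted p = 0.418). Its difference was -0.20 without WT 2. Blnk, an adaptor of the B cell receptor, stood at -0.62, and Il7r, the interleukin-7 receptor, at -0.54. Chosen for their small p, these 3 genes lay below every WT array on every E2A-/- array, as 10.3% of all tested probe sets did. Other B cell genes of the list, Igll1, Vpreb3 and Cd79b, differed by -0.09, -0.05 and 0.03. B cell markers were near background, with 1 of 4 above the array median on the E2A-/- and WT arrays.

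Of the 14 target genes 1 rose in Lyl1-/- cells and 0 fell, where 0.209% of all genes passed. At an unadjusted p under 0.05, 3 were lower and 3 higher, against 5.13% and 3.9% of all genes. This was Cdkn1a, the cell cycle inhibitor p21, with 272, 254 and 192 in Lyl1-/- cells, against 119, 115 and 119 in WT cells (log2 difference 1.02, SE 0.145, limma adjusted p = 0.041). The call was lost in 15 of 23 alternatives, among them those without WT 2 (adjusted p = 0.443), Lyl1-/- 1 (0.168), Lyl1-/- 2 (0.225) or any 1 of the E2A-/- arrays (0.0763 to 0.078). In E2A-/- cells Cdkn1a read 145, 150.1 and 151 (log2 difference from WT 0.35, limma adjusted p = 0.595). Cd79b, a B cell receptor chain, stood at 0.56 in Lyl1-/- cells and Gfi1, a repressor of progenitors, at -0.59, and the median of the list was -0.26.

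Vpreb1 had opposite signs in the knockouts, each set against the same WT arrays. It read 81.6, 78.0 and 82.8 in E2A-/- cells, against 141, 129 and 140.4 in Lyl1-/- cells, which differ by -0.76 on the log2 scale (limma adjusted p = 0.0933, SE 0.109). It passed in 2 of 22 alternatives, with 40 intensity units taken off (0.0377) and with 9 separate samples (0.048). Dntt differed by -0.82 between E2A-/- and Lyl1-/- cells (limma adjusted p = 0.259). The plot of target genes gives all 14 with their intervals.

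**Figure D4:**
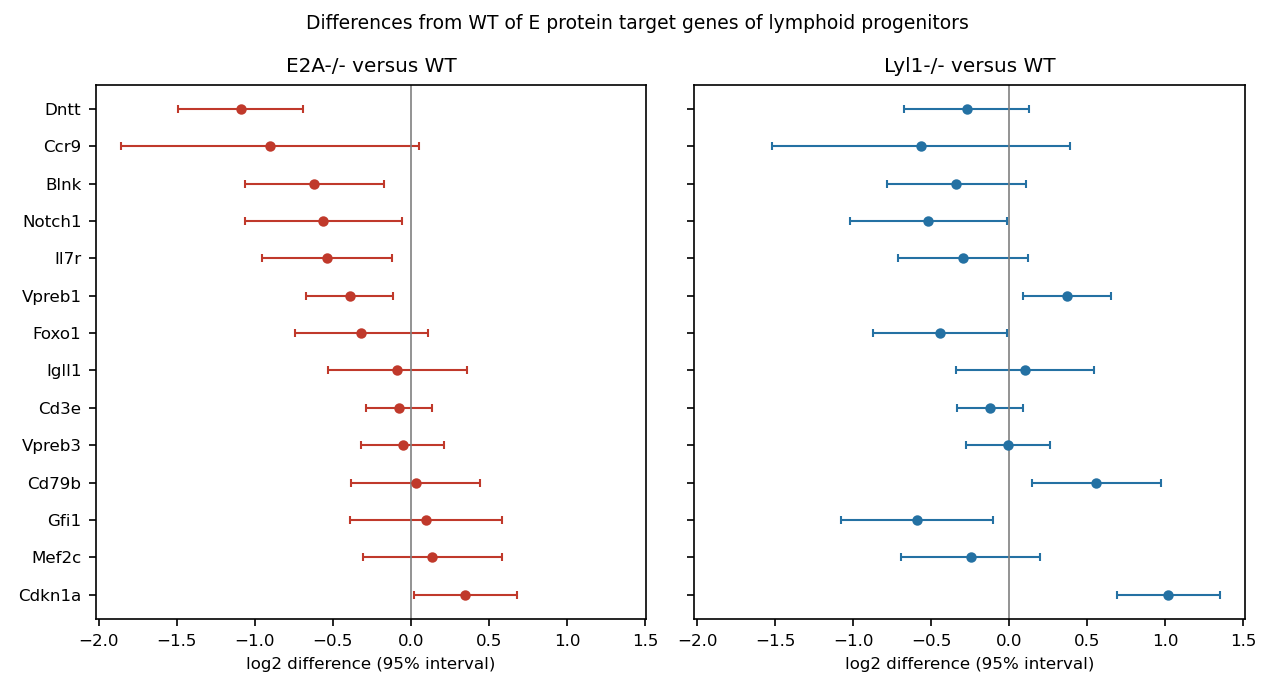
Difference of mean log2 intensity from WT (horizontal axis) for the 14 tested E protein target genes, in E2A-/- cells on the left and Lyl1-/- cells on the right, ordered by the E2A-/- difference; points are limma estimates and bars 95% intervals (n = 3 knockout and 2 WT samples). Dntt lies lowest in E2A-/- cells, at -1.09, and Cdkn1a highest in Lyl1-/- cells, at 1.02.

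BMP and TGF-beta signals act upstream of Id genes, through Smad proteins. Of 21 genes of these pathways 18 were tested, and by limma 0 passed against WT in either knockout. Among all genes 0.226% passed in E2A-/- cells and 0.209% in Lyl1-/- cells. At an unadjusted p under 0.05 there were also 0 of the 18. Among all genes 5.43% were lower and 3.28% higher in E2A-/- cells, and 5.13% and 3.9% in Lyl1-/- cells. The median difference was 0.00 in E2A-/- cells and -0.10 in Lyl1-/- cells. The smallest p belonged to Eng, the co-receptor endoglin, in E2A-/- cells (log2 difference -0.25, limma adjusted p = 0.679) and to the BMP receptor Bmpr2 in Lyl1-/- cells (-0.25, limma adjusted p = 0.681). Smad7, an inhibitory Smad, stood at -0.12 in Lyl1-/- cells.

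For each member the 2 genes with the most similar course over the 8 samples were found among the other tested genes, by Pearson's r. As the highest of about 11950 candidates over only 8 samples, they are a description. For Tcf4 these were Prdx4, an endoplasmic reticulum peroxidase (r = 0.993), and the phosphatase subunit gene Ppp1cc (0.967). For Tcf3 they were Prrc2b (0.955) and Stat6, a cytokine signal factor (0.951), and for Tcf12 the kinase gene Map3k7 (0.960) and the Mediator subunit gene Med23 (0.954). For Id1 they were Alox5ap, the leukotriene synthesis protein of myeloid cells (0.975), and the adhesion receptor gene Adgre5 (0.973). For Id2 they were Ahdc1 (0.959) and Izumo1r (0.951), and for Id3 Syngr3 (0.930) and Pllp (0.926).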

How the data were processed

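The authors deposited 1 intensity per probe set for each of the 9 arrays on a linear scale. Per the submitters' processing notes, RMA and the oligo package were used, with no version. The array medians lie close together (77.9 to 79.3), and whether the arrays had been normalised together was not checked further. The 45101 probe sets hold 64 controls, which were dropped. In the platform annotation 34945 of the rest have 1 gene, 932 several and 9160 none. The log2 of each intensity was taken with no pseudocount. The 20387 probe sets brighter than their array's median on 3 or more arrays entered a linear model with the 3 genotypes (lmFit and eBayes, limma 3.58.1, R 4.3.3), in which WT 1 and WT 3 were averaged, leaving 8 samples and 5 residual degrees of freedom. A gene outside the 6 was read at its brightest probe set. The labels call the samples biological replicates. The number of arrays limits the precision. The model was tested on simulated data.

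The members and lists were chosen with earlier results of these data known. Named genes were the 6 members with every probe set, Id4, list members past the threshold or with the smallest p, and the 2 genes most alike to each member; marker genes were named beside results after their values were seen. Alternatives covered normalisation, a subtracted constant, the filter, the probe set rule, WT as 3 samples, a replicate block, covariates and left-out arrays; that Lyl1, Cdkn1a, Dntt and Vpreb1 were followed through them was chosen after seeing the data.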

Additional observations from a re-analysis of the deposited data

How the results depend on the processing

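None of the 14 tested probe sets, which leave out Id3, passed the threshold in any comparison under any alternative that held them. Each was held by 21 to 23 of the 23 alternatives. At the brightest probe sets, 322 of 339 values kept their sign and their side of the threshold and 17 turned sign. Against WT in E2A-/- cells, Tcf3 ran from -0.33 to 0.0085 when 1 array was left out, turning sign without E2A-/- 3. Tcf4 ran from -0.25 to 0.057, turning without WT 2 (0.012) or E2A-/- 3, and stood at 0.19 without E2A-/- 2 and 3 and at 0.000179 without E2A-/- 2 and WT 2. Tcf12 ran from -0.019 to 0.25, turning without E2A-/- 2, and stood at -0.059 without WT 1 and 3 and at -0.18 without E2A-/- 2 and 3. Id1 ran from -0.095 to 0.0083, turning without WT 1, and stood at 0.067 without WT 1 and 3. Against WT in Lyl1-/- cells, Tcf3 ran from -0.0029 to 0.17 and Tcf12 from -0.21 to 0.012, both turning without WT 2 and likewise without E2A-/- 2 and WT 2 (-0.0029 and 0.012), and Tcf12 was 0.0015 with the actin covariate. Id2 ran from -0.32 to 0.30, turning without Lyl1-/- 3. Between the knockouts Tcf12 was -0.040 without E2A-/- 2 and 3.

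Over all probe sets, the count for E2A-/- against WT was 45 and ran from 15 to 54 when 1 array was left out (15, 19, 20, 23 and 27 without WT 2, Lyl1-/- 2, Lyl1-/- 1, E2A-/- 3 and E2A-/- 2). It was 17 with the stricter filter, 27 with 1 probe set per gene, 14 with the groups compared alone, 26 with the sex covariate, 154 with 9 separate samples, 94 with these and the replicate block, 21 without WT 1 and 3, 11 without E2A-/- 2 and 3 and 15 without E2A-/- 2 and WT 2. For Lyl1-/- against WT it was 44 and ran from 12 to 63 (12, 13, 14 and 28 without Lyl1-/- 1, Lyl1-/- 2, WT 2 and E2A-/- 2). It was 22 with the stricter filter, 23 with 1 probe set per gene, 12 with the sex covariate, 22 with the actin covariate, 149 with 9 separate samples, 88 with these and the replicate block, 24 without WT 1 and 3 and 12 without E2A-/- 2 and WT 2. For E2A-/- against Lyl1-/- it was 15 and ran from 4 to 26 (4 without E2A-/- 3, Lyl1-/- 1 or Lyl1-/- 2, and 26 without Lyl1-/- 3), with 9 under the sex covariate, 4 without E2A-/- 2 and 3 and 6 without E2A-/- 2 and WT 2.

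The E2A-/- minus WT balance ran from 0.068 to 0.30 without 1 array and was -0.068 without WT 1 and 3. The Lyl1-/- minus WT balance ran from -0.55 to -0.30, and was -0.66 without WT 1 and 3 and -0.30 without E2A-/- 2 and WT 2. A genotype left with 1 sample is assumed to vary like the others, and the cause of these changes was not tested. Deviations of same-numbered arrays correlated at -0.14 to 0.25, so the replicate block rests on shared numbers only. Id signals near the array median limit what can be seen.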
